A study of Mus musculus with 20 samples.

Results

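The 10 genes described here encode the E2F transcription factors E2f1, E2f2, E2f3, E2f4, E2f7 and E2f8 and the G1 cyclins Ccnd1, Ccnd2, Ccnd3 and Ccne1. They are 10 of the 17787 genes in a table of transcript levels from mouse bone marrow-derived macrophages, and were found in it by exact gene symbol. They were chosen with results from the same samples known, so their values, fold changes and calls are a description and carry no p-value. All 10 passed the filter on low values, which asked for 10 or more normalized counts in 3 or more of the 20 samples. E2f3 reached that level in 8 samples and E2f7 in 10, E2f2 in 15 and the other members in all 20.

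Marrow of male C57BL/6J mice was differentiated for 7 days in medium containing L929 supernatant, which gives macrophages, and all groups were transfected with 50 nM of an siRNA for 48 h. A control siRNA (sicontrol) was compared with one against Brg1, whose gene is Smarca4 and which powers the BAF complexes that move nucleosomes. Each arm used a single siRNA product. During the last 6 h the cells received vehicle (3 samples with each siRNA), 100 ng/ml of the bacterial cell wall component lipopolysaccharide (LPS, 3 samples each), or LPS with 1 µM of the synthetic glucocorticoid dexamethasone (Dex+LPS, 4 samples each). The labels do not say whether the replicates came from separate mice or cultures, and p-values then cover just the spread among the samples, which may be technical.

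In the textbook scheme, D-type cyclins bind the kinases Cdk4 and Cdk6 in answer to growth signals and start the phosphorylation of the retinoblastoma family (pocket) proteins, and cyclin E with Cdk2 carries it on. Phosphorylated pocket proteins release the activator factors E2F1, E2F2 and E2F3, which drive genes of DNA synthesis. E2F4 acts mainly with pocket proteins as a repressor. E2F7 and E2F8 repress without pocket proteins, and are themselves classical targets of the activator E2Fs. Bone marrow-derived macrophages divide under colony-stimulating factor 1, which L929 supernatant supplies, and arrest of their cycle by LPS is long known.

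RefSeq promoter windows (build GRCm38.p6, 250 bases before to 50 after a transcript start) were found for 7 members, 10 windows in all, since E2f2, E2f3 and Ccnd3 have 2 each. E2f4, Ccnd1 and Ccnd2 are named only. The first set of sequences shows the single match to an E2F word that each of 3 E2F genes holds, in capitals with flanking bases, because several of the genes are known targets of the family. The words searched on both strands were TTTGGCGC, TTTCCCGC, TTTGCCGC and TTTCGCGC, and 2.26% of 32851 promoters hold at least 1 of them. The E2f2 match (chr4:136172302-136172323, plus strand) begins 39 bases after the RefSeq start. The E2f3 match (chr13:29986056-29986085, minus strand) begins 11 bases before its start, and the E2f7 match (chr10:110745230-110745259, plus strand) 198 bases before. In E2f3 and E2f7 the letters printed are the reverse complement of TTTCCCGC.
E2f2: gcggcatatagTTTGGCGCtaa
E2f3: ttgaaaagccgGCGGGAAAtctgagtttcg
E2f7: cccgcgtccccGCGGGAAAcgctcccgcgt
The other 7 windows hold none of these letters. The E2f1 window does not reach the start of the gene span printed for it below, so bases before that start were not searched. The E-box CACGTG (7.15% of all promoters) occurred in 1 window, at the second E2f3 start. A match is a description of letters, not a binding site.

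The second set gives the 100 bases before the RefSeq start of 2 members that were lower with LPS (E2f1 and E2f2) and 2 that were higher (E2f8 and Ccne1). CpG dinucleotides are in capitals, to show how base composition differs among them. The gene positions printed further below come from another annotation. By that annotation the E2f1 window lies inside the gene (chr2:154559407-154569892), not before its start, and so does part of the Ccne1 window. The windows are chr2:154569427-154569526 (minus strand), chr4:136172174-136172273 (plus), chr7:48881597-48881696 (minus) and chr7:38107491-38107590 (minus).
E2f1: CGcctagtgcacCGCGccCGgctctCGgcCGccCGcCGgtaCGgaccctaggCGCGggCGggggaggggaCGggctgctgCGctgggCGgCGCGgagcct
E2f2: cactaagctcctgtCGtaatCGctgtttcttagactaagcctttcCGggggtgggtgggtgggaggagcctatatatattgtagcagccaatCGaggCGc
E2f8: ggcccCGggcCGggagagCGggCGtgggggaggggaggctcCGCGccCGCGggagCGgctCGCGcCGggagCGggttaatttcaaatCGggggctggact
Ccne1: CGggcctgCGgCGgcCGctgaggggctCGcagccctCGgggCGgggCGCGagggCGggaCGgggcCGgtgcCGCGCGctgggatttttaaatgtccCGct
Over the whole 300 bases, E2f1 holds 48 CpGs, Ccne1 41 and E2f8 32, and the first E2f2 window holds 18 and its second 7. All promoters have a median of 7 CpGs (quartiles 3 and 20). The share of promoters with fewer CpGs was 98.8% for E2f1, 96.5% for Ccne1 and 90.5% for E2f8, against 70.3% and 47.9% for the E2f2 windows. E2f1 and E2f2, both lower with LPS, were the richest and the poorest of these 4 in CpG.

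Reads recovered from the deposited values and summed over all 17787 genes came to 13.69 to 18.71 M per library. Values are normalized counts (reads divided by a size factor for each library). Smarca4, which checks the knockdown, fell in vehicle by 2.12 on the log2 scale (SE 0.08). It fell by 2.28 with LPS (SE 0.08) and by 2.10 with Dex+LPS (SE 0.07), and no library of an siRNA overlapped the other at the same treatment. Smarca4 also changed with treatment. Its LPS response was 0.90 with control and 0.74 with Brg1 siRNA, and its Dex response -0.55 and -0.38 (SE 0.08 for each). Brg1 siRNA libraries averaged 354 in vehicle, 594 in LPS and 458 in Dex+LPS, so the level left differed between treatments. All 9 macrophage markers were detected in every group; their sum ran from 236497 to 250686 in control and 292060 to 302655 in Brg1 vehicle libraries, 278190 to 294743 and 423461 to 435706 in LPS, and 280000 to 323327 and 351526 to 360540 in Dex+LPS. Of the other marker lists, the summed B cell markers (5 of 8 in the table) lay between 630 and 703 in control vehicle libraries, 71.0 and 149 with control siRNA in LPS or Dex+LPS, 57.1 and 72.5 with Brg1 siRNA in vehicle and 3.69 and 23.9 with Brg1 siRNA in the rest, and Cd79a was at 0 in every group except control Dex+LPS. The neutrophil list (7 of 8) ran from 122 to 172 in control vehicle and from 541 to 630.3 in Brg1 Dex+LPS, and Ly6g was at 0 in all groups but control Dex+LPS. The fibroblast list (3 of 6 in the table) summed to 1.56 to 2.62 with vehicle and 499 to 1051 with LPS or Dex+LPS, with Dcn at 0 with vehicle and LPS. Sums for the myeloid progenitor list (7 of 7) were 32.1 to 224, for T and NK cells (4 of 8) 21.4 to 182, for dendritic cells (6 of 6) 9.38 to 56.4, and for mast cells (2 of 6) and erythroid cells (1 of 5) at most 3.05. Their part in the results was not tested. Of the 20 libraries, 4 carry numbers from a higher series in their labels, and each is in an LPS or Dex+LPS group, so no vehicle sample has such a number. Ccnd1, Ccnd2, Ccnd3, E2f3, E2f7 and E2f8 overlap annotated genes on the other strand, and how the counting used strand is not given in the sources used here, so reads of such partners cannot be told apart.

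A gene was called at a Benjamini-Hochberg adjusted p under 0.05 over the 12061 genes tested with limma. Fold changes are on the log2(normalized count + 1) scale. All 6 groups share 1 estimate of a gene's spread, so SEs and intervals also carry the spread of groups outside the comparison. LPS was compared with vehicle, Dex+LPS with LPS (the Dex response), and Brg1 siRNA with control siRNA at each treatment. The LPS and Dex comparisons of an siRNA share their LPS libraries. Of the 10 members, 9 were called for LPS with control siRNA, where 73.0% of all genes were called: 4 were higher (36.0% of all genes) and 5 lower (37.0%). With Brg1 siRNA 9 were called for LPS (72.8%), 4 higher (35.4%) and 5 lower (37.4%). For Dex 6 were called with control siRNA (48.7%), 3 higher (23.4%) and 3 lower (25.2%), and 6 with Brg1 siRNA (44.4%), 3 higher (21.3%) and 3 lower (23.0%). For the knockdown 3 were called in vehicle (20.1%), 1 higher (9.39%) and 2 lower (10.8%). In LPS 5 were called (33.1%), 4 higher (17.3%) and 1 lower (15.8%), and in Dex+LPS 5 (34.3%), 4 higher (19.0%) and 1 lower (15.3%). The members were chosen with these contrasts known, so nothing is read from the counts. Medians of the 10 log2 fold changes were -0.94 and -0.08 for LPS with control and Brg1 siRNA (all genes -0.04 and -0.05), 0.03 and 0.13 for Dex (-0.01 and -0.02), and for the knockdown -0.19 in vehicle (all genes 0.005), 0.48 in LPS (0.01) and 0.39 in Dex+LPS (0.01). These are bulk samples, so fewer cells of a type and less RNA per cell cannot be told apart.

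**Figure D1:**
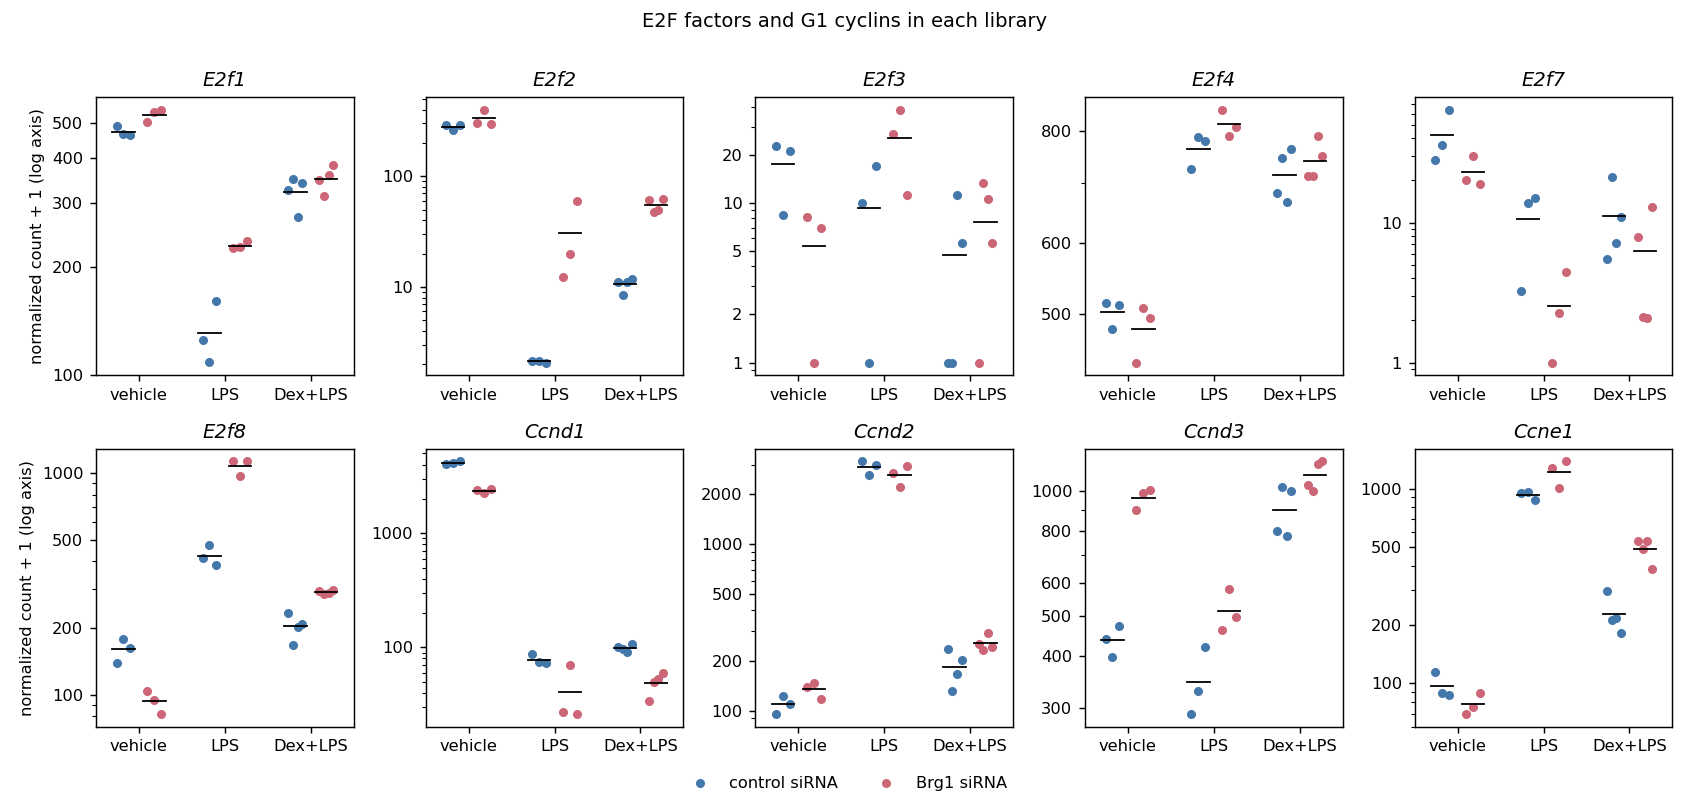
Normalized count + 1 on log axes for each member in each of the 20 libraries, by treatment, with control siRNA in blue and Brg1 siRNA in red; horizontal lines are group means. The 3 control libraries in LPS hold 1 E2f2 read each, and Ccnd1 lies between 2229 and 4267 in the vehicle libraries and at or below 105 in the others.

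The 3 D-type cyclins answered LPS differently: Ccnd1 fell, Ccnd2 rose and Ccnd3 fell by less. Ccnd1 (ENSMUSG00000070348, chr7:144929931-144939925, minus strand) encodes the D-type cyclin most associated with growth factor signalling, and overlaps LTO1 on the other strand. Its normalized counts were 4019, 4156 and 4267 in control vehicle and 2401, 2229 and 2423 in Brg1 vehicle libraries. With LPS they were 85.7, 74.0 and 71.7 (control) and 26.2, 68.5 and 25 (Brg1). All LPS libraries lay far below all vehicle libraries, and all Brg1 vehicle libraries below all control vehicle libraries. In Dex+LPS Ccnd1 stood at 98.8, 95.1, 89.5 and 105 with control siRNA and at 33.2, 49.1, 51.3 and 58.2 with Brg1 siRNA, again without overlap. The LPS response of Ccnd1 was -5.73 (SE 0.26) with control siRNA and -6.00 (SE 0.26) with Brg1 siRNA on the log2 scale, the 32nd and 16th lowest of the 12061 genes. The Dex difference, 0.33 (95% interval -0.19 to 0.85) with control and 0.39 (-0.13 to 0.91) with Brg1 siRNA, was not called; scaled by plain library totals it was 0.62 and 0.71 and was called. With Brg1 siRNA it was also called without Brg1 LPS replicate 2 (0.85) and without the higher number series (0.75). The knockdown lowered Ccnd1 at each treatment, with values of -0.82 (SE 0.26) for vehicle, -1.09 (SE 0.26) for LPS and -1.03 (SE 0.23) for Dex+LPS. The call in vehicle held in 25 of 31 alternatives, among them the fit of just the groups compared. It ended without any single one of the 6 vehicle libraries, at -0.78 to -0.84. The call in LPS ended when just the groups compared were fitted. In LPS the Brg1 library of the higher number series (replicate 2) held 68.5, above both others of its group, and the value without that series was -1.60.

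Ccnd2 (ENSMUSG00000000184, chr6:127125162-127152193, minus strand) encodes a D-type cyclin that substitutes for cyclin D1 in many blood cells. Its normalized counts with vehicle were 94.6, 122 and 108 (control) and 139, 145 and 116 (Brg1). With LPS they were 3139.8, 2591 and 2979 (control) and 2684, 2192 and 2946 (Brg1), more than an order of magnitude above every vehicle library. With Dex+LPS they were 234, 130.4, 166 and 200.5 (control) and 252, 231, 291 and 242 (Brg1), so Dex+LPS libraries lay closer to the vehicle than to the LPS level. The LPS rise was 4.74 (SE 0.17) on the log2 scale with control and 4.27 (SE 0.17) with Brg1 siRNA, and the Dex response -4.01 (SE 0.16) and -3.35 (SE 0.16), the 47th and 41st lowest of 12061 genes. The knockdown raised Ccnd2 in Dex+LPS by 0.50 (SE 0.15), with 1 pair of libraries overlapping, and the call ended without control replicate 2 (0.35) or Brg1 replicate 3 (0.43), and when just the groups compared were fitted. In vehicle and LPS the knockdown differences were 0.30 (95% interval -0.06 to 0.66) and -0.16 (-0.52 to 0.20) and were not called.

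Ccnd3 (ENSMUSG00000034165, chr17:47505051-47599691, plus strand) encodes the third D-type cyclin and overlaps Bysl on the other strand. Its normalized counts with vehicle were 439, 399 and 471 (control) and 898, 984 and 1004 (Brg1). With LPS they were 289.7, 329 and 419 (control) and 463, 581 and 497 (Brg1), and with Dex+LPS 800.1, 1018, 776 and 999 (control) and 1029.5, 997, 1158 and 1176 (Brg1). Brg1 libraries lay above control libraries in vehicle and LPS without overlap, and in Dex+LPS they overlapped. The knockdown raised Ccnd3 by 1.14 (SE 0.13) in vehicle and 0.58 (SE 0.13) in LPS, and the difference in Dex+LPS, 0.29 (95% interval 0.04 to 0.53), was not called. That difference was called in 7 of 31 alternatives, among them DESeq2, the replicate block, the fit without the higher number series (0.30), and those without control Dex+LPS replicate 2 (0.35) or 4 (0.34). The LPS response was -0.35 (SE 0.13) with control siRNA and -0.91 (SE 0.13) with Brg1 siRNA. The first rested on overlapping groups, and its call ended without vehicle replicate 1 (-0.34) or 3 (-0.29) or LPS replicate 1 (-0.23) or 2 (-0.32), and when just the groups compared were fitted. Dex raised Ccnd3 by 1.38 (SE 0.12) with control and 1.09 (SE 0.12) with Brg1 siRNA.

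The D-type cyclins changed places in each treatment when levels were set side by side per kilobase of the longest coding transcript. With control siRNA and vehicle, Ccnd1 made up 83.2% ± 0.88 (SD, n = 3) of the per-kilobase total, Ccnd3 15.5% ± 1.03 and Ccnd2 1.28% ± 0.16. With LPS, Ccnd2 held 71.3% ± 3.79, Ccnd3 25.4% ± 4.09 and Ccnd1 3.22% ± 0.38, and with Dex+LPS (n = 4) Ccnd3 held 88.4% ± 2.31, Ccnd2 6.12% ± 1.82 and Ccnd1 5.45% ± 0.51. With Brg1 siRNA the leading gene in each treatment was the same by group mean: Ccnd1 56.9% ± 2.01 in vehicle, Ccnd2 61.7% ± 6.57 in LPS and Ccnd3 90.7% ± 0.45 in Dex+LPS. The Ccnd3 share in vehicle was 41.2% ± 1.99 with Brg1 siRNA, and none of these libraries overlapped the control ones. The summed D-type cyclin level per kilobase was 1332 ± 43.4 with control and 1105 ± 31.7 with Brg1 siRNA in vehicle, 643 ± 53.0 and 666 ± 36.5 in LPS, and 480 ± 58.8 and 569 ± 46.9 in Dex+LPS. Shares within a library do not depend on its size factor, but they do depend on the transcript length taken for each gene.

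**Figure D2:**
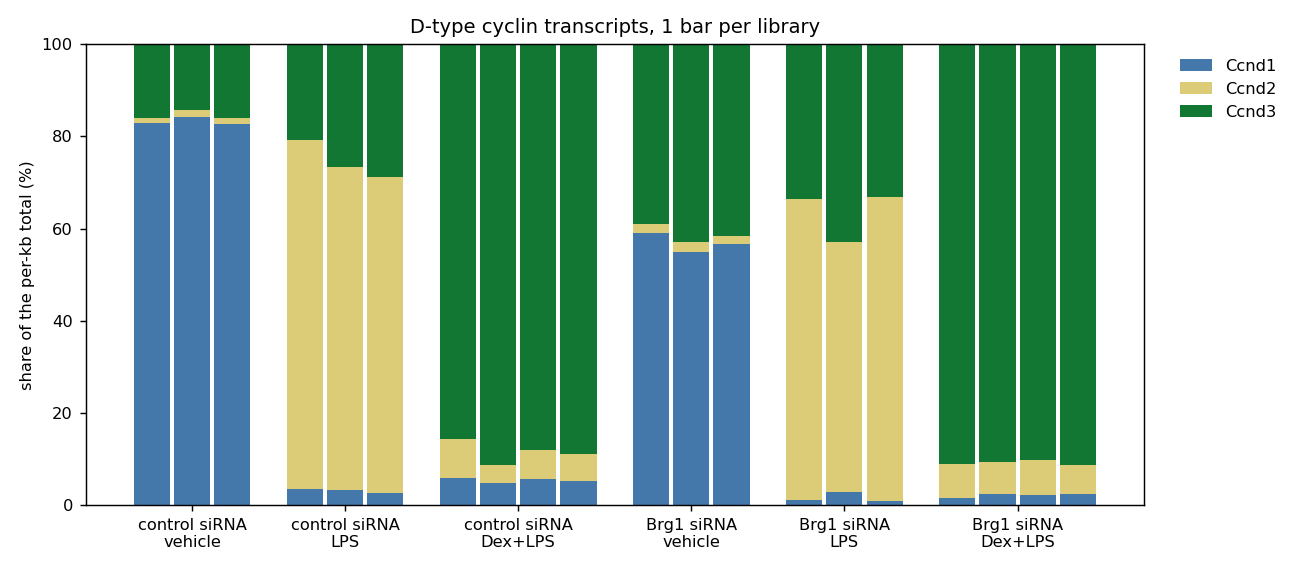
Share of Ccnd1, Ccnd2 and Ccnd3 in their summed level per kilobase (%, vertical axis), with 1 stacked bar for each of the 20 libraries, by group. Ccnd1 leads in all vehicle libraries, Ccnd2 in all LPS libraries and Ccnd3 in all Dex+LPS libraries.

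Ccne1 (ENSMUSG00000002068, chr7:38097984-38107534, minus strand) encodes cyclin E1, the partner of Cdk2 at the entry to S phase. Its normalized counts with vehicle were 114, 87.8 and 86.5 (control) and 68.6, 74.3 and 87.8 (Brg1), which overlapped. With LPS they were 949, 953 and 871 (control) and 1267, 1009 and 1379 (Brg1), about an order of magnitude above vehicle, with all Brg1 libraries above the control ones. With Dex+LPS they were 297, 209, 216 and 181 (control) and 535, 487, 536 and 387 (Brg1), again without overlap. LPS raised Ccne1 by 3.26 (SE 0.17) on the log2 scale with control and 3.96 (SE 0.17) with Brg1 siRNA, and the Dex response was -2.05 (SE 0.16) and -1.32 (SE 0.16). The knockdown raised it in Dex+LPS by 1.12 (SE 0.15). The differences in vehicle, -0.31 (95% interval -0.68 to 0.05), and LPS, 0.39 (0.02 to 0.75), were not called. The latter was called in 4 of 31 alternatives: without Brg1 LPS replicate 2 (0.52), with the replicate block, with the number series as a term, and when just the groups compared were fitted. Ccne1 rose with LPS while Ccne2, which encodes the other cyclin E, fell by 5.57 (SE 0.65; limma adjusted p = 4.42e-07) with control siRNA. The control LPS group held 11 Ccne2 reads in all, so the size of that fall rests on few reads.

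The activator genes E2f1 and E2f2 fell with LPS and rose with Dex, and the knockdown raised both in LPS. E2f1 (ENSMUSG00000027490, chr2:154559407-154569892, minus strand) had normalized counts of 491, 466 and 463 in control vehicle and 503, 536 and 545 in Brg1 vehicle libraries. In LPS it had 124, 108 and 159 (control) and 224, 226 and 234 (Brg1), and the 2 groups did not overlap. In Dex+LPS it had 325, 349, 275 and 339.7 (control) and 347, 313, 359 and 381 (Brg1), which overlapped. The LPS response was -1.87 (SE 0.12) with control and -1.21 (SE 0.12) with Brg1 siRNA, and the Dex response 1.31 (SE 0.11) and 0.61 (SE 0.11). The knockdown effect was 0.82 (SE 0.12) in LPS; in vehicle, 0.16 (95% interval -0.09 to 0.41), and in Dex+LPS, 0.12 (-0.10 to 0.34), it was not called.

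E2f2 (ENSMUSG00000018983, chr4:136172394-136196057, plus strand) fell with LPS to 1 read in each control library. With vehicle it had 289, 263 and 290.1 (control) and 302, 398 and 298 (Brg1). With LPS it had 1.13, 1.16 and 1.07 (control, 3 reads over the group) and 11.2, 18.7 and 59.1 (Brg1, 9, 15 and 52 reads). With Dex+LPS it had 9.97, 7.48, 10.2 and 10.7 (control) and 60.6, 46.8, 48.1 and 61.9 (Brg1). Brg1 libraries lay above control libraries in all 3 treatments, but in vehicle the difference, 0.23 (95% interval -0.55 to 1.01), was not called. On summed reads scaled by depth, control vehicle exceeded control LPS 251-fold (95% counting interval 85.6 to 1219), Brg1 LPS exceeded control LPS 27.4-fold (9.03 to 136), and control Dex+LPS exceeded control LPS 8.69-fold (2.78 to 43.8). These intervals cover counting error only. The fitted log2 values, -7.05 (SE 0.37) for LPS with control siRNA, -3.76 (SE 0.37) with Brg1 siRNA, 3.52 (SE 0.37) for the knockdown in LPS and 2.39 (SE 0.32) in Dex+LPS, depend on the pseudocount: the knockdown value in LPS was 2.25 at a pseudocount of 5 and 4.75 with DESeq2. E2f2 ranked 13th lowest for LPS with control siRNA, 23rd highest for the knockdown in LPS and 39th highest in Dex+LPS of 12061 genes. The Brg1 LPS replicate 3, with 59.1, stood above both others of its group, and the knockdown value in LPS without it was 2.87. Dex raised E2f2 by 2.31 (SE 0.35) with control siRNA and by 1.17 (SE 0.35) with Brg1 siRNA, and the latter was 0.67 and not called without Brg1 LPS replicate 1, was also not called without the higher number series (0.95) or when just the groups compared were fitted, and was 1.82 without Brg1 LPS replicate 3.

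E2f3 (ENSMUSG00000016477, chr13:29906575-29986063, minus strand), the third activator, was measured near the limit of detection. Normalized counts ran from 0 to 37.4 (Brg1 LPS replicate 2), and 5 of 20 libraries were at 0. In LPS, control libraries had 9.02, 0 and 16.0 and Brg1 libraries 26.2, 37.4 and 10.2, which overlapped. None of the 7 pairwise comparisons was called for E2f3, and the 95% interval of the knockdown value in LPS ran from -0.50 to 4.56 on the log2 scale. With LPS against vehicle and Brg1 siRNA the groups did not overlap (vehicle libraries held 7.18, 0 and 5.97); the difference of 2.56 (95% interval 0.03 to 5.09) was not called, but was called in 4 of 30 alternatives. In the knockdown comparison in vehicle they did not overlap either, against 21.8, 7.46 and 20.1 with control siRNA, and the difference of -2.05 (-4.58 to 0.48) was not called.

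E2f4 (ENSMUSG00000014859, chr8:105297663-105305370, plus strand), the pocket protein partner in quiescent cells, had the smallest knockdown differences of the 10 genes at each treatment. Its normalized counts were 513, 481 and 511 in control vehicle and 441, 507 and 495 in Brg1 vehicle libraries. With LPS they were 725, 787 and 778 (control) and 843, 788 and 807 (Brg1), and with Dex+LPS 681, 745, 665 and 763 (control) and 712, 711, 788 and 749 (Brg1). All LPS and Dex+LPS libraries lay above all vehicle libraries. The 95% intervals of the knockdown difference were -0.21 to 0.09 in vehicle, -0.06 to 0.24 in LPS and -0.08 to 0.18 in Dex+LPS. LPS raised E2f4 by 0.60 (SE 0.07) with control and 0.76 (SE 0.07) with Brg1 siRNA, but scaling by plain library totals, which moved the median of all genes by -0.61 and -0.72 for LPS, left 0.02 and 0.08, which were not called. The Dex difference of E2f4, -0.10 and -0.14 with control and Brg1 siRNA and not called, was 0.20 and 0.20 and called under that scaling.

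The atypical repressor genes E2f8 and E2f7 went opposite ways with LPS. E2f8 (ENSMUSG00000046179, chr7:48866429-48881596, minus strand) had normalized counts of 139, 177 and 162 in control vehicle and 103, 93.8 and 81.0 in Brg1 vehicle libraries. With LPS it had 411, 471 and 383 (control) and 1129.6, 969.5 and 1129 (Brg1), and with Dex+LPS 234, 167, 201 and 208 (control) and 294, 283, 289 and 296 (Brg1). Brg1 libraries lay below control libraries in vehicle and above them in LPS and Dex+LPS, without overlap in any of the 3. Knockdown values were -0.78 (SE 0.13) in vehicle and 1.35 (SE 0.13) in LPS, against 0.53 (SE 0.11) in Dex+LPS. LPS raised E2f8 by 1.40 (SE 0.13) with control and 3.53 (SE 0.13) with Brg1 siRNA, and the Dex response was -1.06 (SE 0.12) and -1.88 (SE 0.12). E2f8 was called in all 7 pairwise comparisons, and in every one of the 31 alternatives to each of them.

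E2f7 (ENSMUSG00000020185, chr10:110745439-110787384, plus strand) had 26.8, 34.8 and 62.9 normalized counts in control vehicle and 19.1, 28.9 and 17.9 in Brg1 vehicle libraries. In LPS it had 2.25, 12.7 and 13.9 (control, 26 reads) and 0, 1.25 and 3.41 (Brg1, 4 reads), so the highest Brg1 library lay above the lowest control library. In Dex+LPS it had 4.53, 20.3, 6.10 and 9.95 (control) and 6.86, 1.11, 1.07 and 12 (Brg1), which overlapped. The LPS response of E2f7 was -2.19 (SE 0.76) with control siRNA and -3.39 (SE 0.76) with Brg1 siRNA, and the first call ended without control vehicle replicate 3 (-1.85) or control LPS replicate 1 (-1.48). On summed reads control LPS exceeded Brg1 LPS 6.01-fold (95% counting interval 2.09 to 23.7), but the fitted difference, -2.02 (SE 0.76), was not called; it was called in 11 of 29 alternatives. No Dex or knockdown comparison of E2f7 was called.

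**Figure D3:**
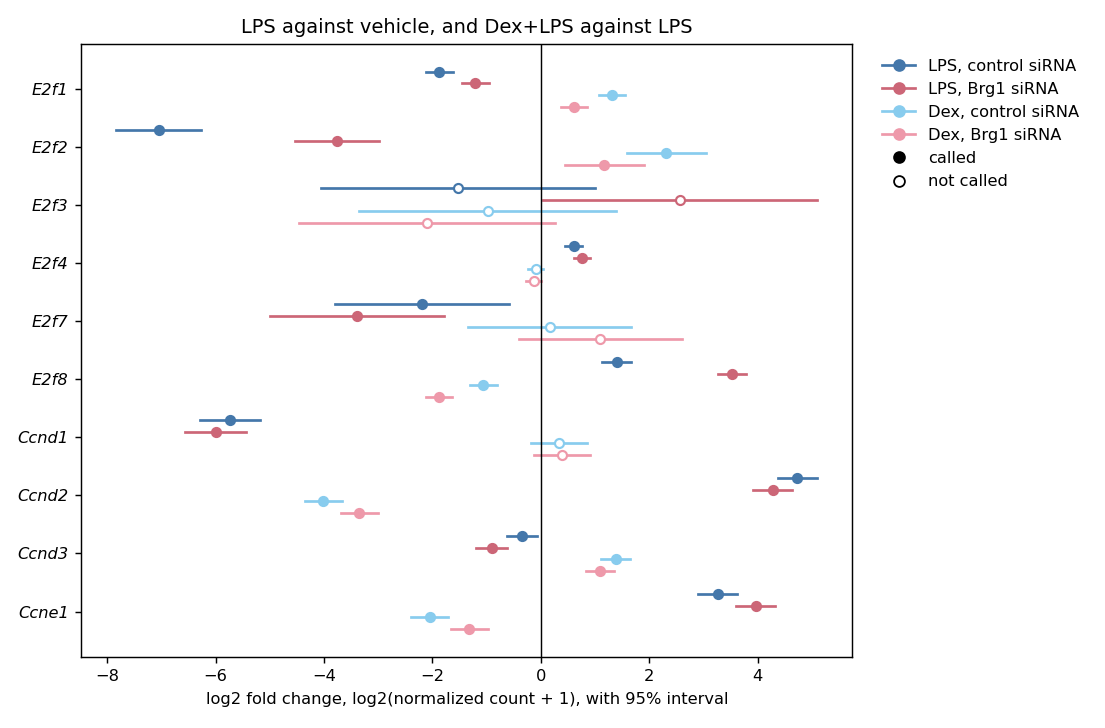
Log2 fold change (horizontal axis, on log2(normalized count + 1)) with its 95% interval for LPS against vehicle and Dex+LPS against LPS, with each siRNA; filled points are called and open points are not. With control siRNA, E2f2 (-7.05) and Ccnd1 (-5.73) lie farthest to the left for LPS and Ccnd2 (4.74) farthest to the right, and Ccnd2 lies farthest to the left for Dex.

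Set side by side per kilobase, E2f4 held the largest share of the 6 E2F transcripts in all 6 groups, from 45.3% ± 1.08 (Brg1 vehicle) to 69.9% ± 0.22 (control LPS). E2f1 held 32.0% ± 1.04 in control vehicle and 8.64% ± 1.72 in control LPS, against 36.0% ± 1.31 and 10.4% ± 0.47 with Brg1 siRNA. E2f8 held 8.06% ± 1.14 in control vehicle, 20.9% ± 2.05 in control LPS and 36.7% ± 1.51 in Brg1 LPS. The ratio of E2f8 to E2f1 per kilobase was 0.25 ± 0.04 in control vehicle and 0.13 ± 0.02 in Brg1 vehicle, 2.51 ± 0.74 and 3.52 ± 0.28 in LPS, and 0.47 ± 0.09 and 0.62 ± 0.04 in Dex+LPS. In LPS the libraries of that ratio ran from 1.79 to 3.27 with control and from 3.21 to 3.76 with Brg1 siRNA, which overlapped. E2f2 held 11% in control vehicle, 0.0431% in control LPS and 0.784% in Brg1 LPS, and E2f3 and E2f7 held at most 1.41% in any group mean.

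**Figure D4:**
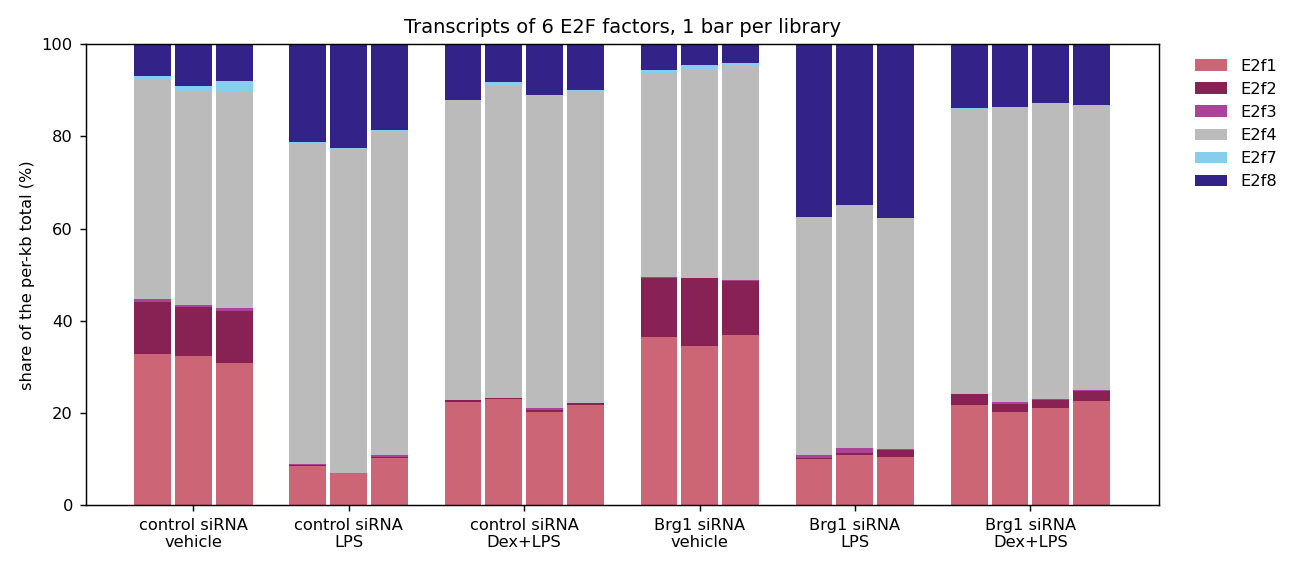
Share of 6 E2F genes in their summed level per kilobase (%, vertical axis), with 1 stacked bar for each of the 20 libraries, by group. E2f1 and E2f2 take a smaller part in every LPS library than in any vehicle library, and the E2f8 part is largest in the 3 Brg1 LPS libraries.

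The difference of the knockdown effect between treatments was fitted directly. Between LPS and vehicle, 3 members were called, all higher, where 11.4% of all genes were called (6.39% higher, 5.05% lower): E2f2 at 3.29 (SE 0.52), E2f8 at 2.13 (SE 0.18) and E2f1 at 0.66 (SE 0.17) on the log2 scale. Without Brg1 LPS replicate 3 the E2f2 value was 2.64. Between Dex+LPS and LPS, 2 were called, both lower, where 3.97% of all genes were (2.75% higher, 1.22% lower): E2f8 at -0.82 (SE 0.17) and E2f1 at -0.70 (SE 0.16). The E2f8 call ended on leaving out the higher number series, at -0.82, and the E2f1 call when just the groups compared entered the fit. For E2f2 the value was -1.14 (95% interval -2.17 to -0.11) and was not called; without Brg1 LPS replicate 1 it was -1.64 and called, and over 31 alternatives it ran from -2.25 to -0.23. Both contrasts use the same LPS libraries. The remaining 7 members were not called in either contrast, but leaving out libraries added calls. Without Brg1 LPS replicate 2 the LPS contrast had 6 members called, the added ones being Ccnd1 (-0.73) and Ccnd3 (-0.65), both lower, and Ccne1 (0.83). Without the higher number series Ccnd1 (-0.78) and Ccne1 (0.79) were called there, and both Ccnd3 and Ccne1 were with DESeq2, the replicate block and the number series as a term. In the Dex contrast, Ccne1 (0.87) and Ccnd2 (0.79) were called without control Dex+LPS replicate 1, and Ccne1 (0.83) without Brg1 Dex+LPS replicate 4. The shares of all genes called in these fits are not printed here, so nothing is read from the added calls. Intervals for the D-type cyclins in the LPS contrast were -1.05 to 0.52 (Ccnd1), -0.98 to 0.05 (Ccnd2) and -0.96 to -0.16 (Ccnd3).

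**Figure D5:**
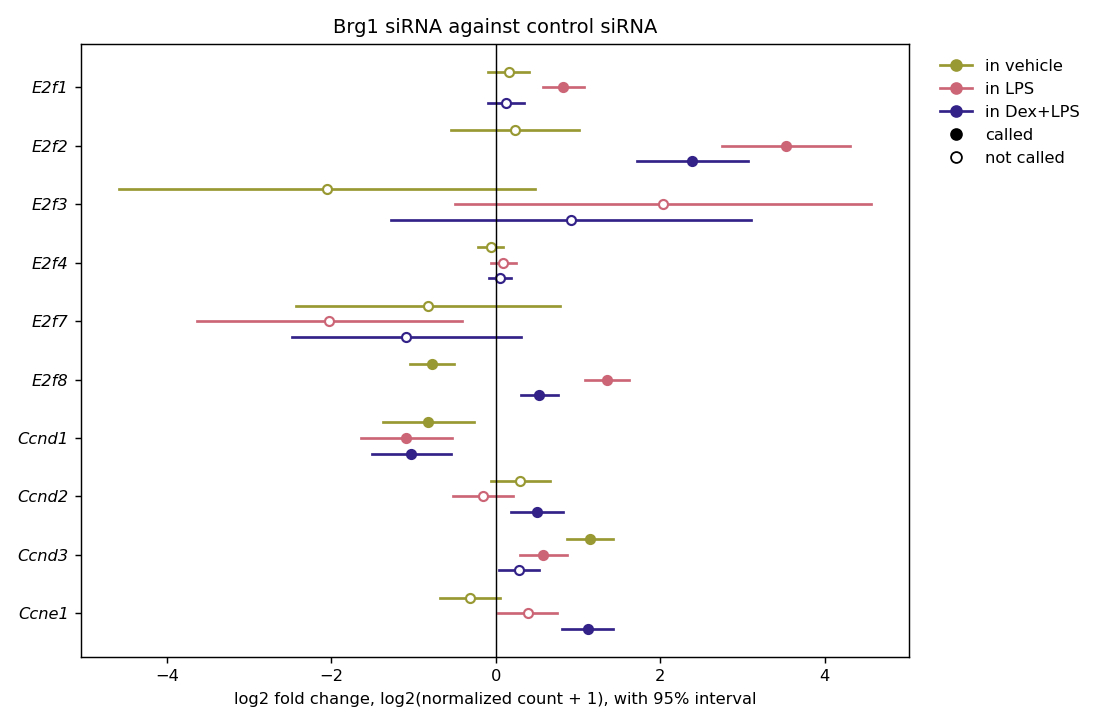
Log2 fold change (horizontal axis, on log2(normalized count + 1)) of Brg1 siRNA against control siRNA with its 95% interval, in vehicle, LPS and Dex+LPS; filled points are called and open points are not. E2f8 lies left of 0 in vehicle and right of 0 in LPS and Dex+LPS, Ccnd1 lies left of 0 in all 3, and E2f4 lies near 0.

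Groups did not overlap for 8 and 10 members in the LPS comparisons with control and Brg1 siRNA (77.6% and 78.8% of all genes), for 7 and 6 in the Dex comparisons (46.8% in each), and in the knockdown comparisons for 6 in vehicle (46.1%), 7 in LPS (46.1%), and 4 where Dex was added (29.2%). Nothing is read from these counts either, since the same contrasts were known when the genes were chosen.

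Per-gene likeness was taken as Pearson's r of log2(normalized count + 1) over the 20 samples, which share treatment groups, and is a description. Ccnd1 was most like Gpr183 (r = 0.995), Erp29 (0.992) and Mcm6 (0.988), the last a subunit of the replicative helicase. Ccnd2 was most like the collagenase gene Mmp13 (0.992), Inpp5b (0.991) and Cmtm6 (0.991), and Ccne1 most like Brd2 (0.989), Plk2 (0.989) and Kpna4 (0.988). E2f1 was most like Cirbp (0.976), Rhod (0.968) and Nudt7 (0.966), E2f2 most like Cyb5r1 (0.976), Txndc16 (0.971) and 1110032A03Rik (0.969), and E2f4 most like Cdc42ep2 (0.976), Secisbp2 (0.976) and Polr2c (0.976). E2f8 was most like Spred1 (0.962), Dync1i2 (0.961) and Arrdc4 (0.958), Ccnd3 most like Fabp4 (0.947), Phyhd1 (0.928) and Apoc2 (0.927), and E2f7 most like Spef1 (0.879), Chtf18 (0.878) and Eef1a2 (0.869). Among the members themselves, E2f8 and Ccne1 reached 0.92, E2f1 and E2f2 0.88, Ccnd2 and Ccne1 0.88, and Ccnd1 and E2f4 -0.95.

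The other genes of the pathway were counted from a list of 51, of which 50 were in the table and 48 were tested; Lin54 is not analysed here. The knockdown gave 2 higher and 25 lower in vehicle, where 9.39% and 10.8% of all genes were called higher and lower (median of the list -0.63, all genes 0.005). The 27 calls were 15 without control vehicle replicate 1. The share of all genes called in that fit is not printed here, so nothing is read from the drop. The knockdown gave 6 higher and 15 lower in LPS (17.3% and 15.8% of all genes, medians -0.17 and 0.01) and 4 higher and 16 lower in Dex+LPS (19.0% and 15.3%, medians -0.39 and 0.01). LPS gave 7 higher and 33 lower with control siRNA (36.0% and 37.0%; -1.53, all genes -0.04), and with Brg1 siRNA 8 higher and 30 lower (35.4% and 37.4%; -0.95, -0.05). Dex gave 25 higher and 7 lower with control siRNA (23.4% and 25.2% of all genes; 0.53, -0.01), and with Brg1 siRNA 20 higher and 9 lower (21.3% and 23.0%; 0.37, -0.02). Under plain library totals the lower counts for the knockdown became 27, 18 and 23, and the LPS counts 6 higher and 38 lower and 6 and 37. That scaling also lowered the median of all genes for the knockdown in LPS and for LPS, as given in the closing section. Nothing is therefore read from the direction of these counts, and the Dex counts under it are not printed here.

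Most target genes of S phase fell with LPS, and more of them rose than fell with Dex. Of 23 tested, LPS lowered 21 with control siRNA (37.0% of all genes were lower) and 18 with Brg1 siRNA (37.4%). It raised none with either siRNA (36.0% and 35.4% of all genes were higher), and the medians were -1.98 and -1.71. Rrm2, which encodes a subunit of ribonucleotide reductase, went from 403 ± 50.0 to 19.4 ± 1.78 (SD, n = 3) with control siRNA, a log2 fold change of -4.30 (SE 0.24; limma adjusted p = 1.36e-11). Cdc6, which loads the replicative helicase, fell with LPS and control siRNA (change of -3.38 on the log2 scale, SE 0.57; limma adjusted p = 3.78e-05). Its control LPS group held 17 reads. Dex raised 14 with control siRNA (23.4% of all genes were higher) and lowered Cdt1 alone (25.2% were lower). With Brg1 siRNA it raised 11 (21.3%) and lowered Cdt1 and Pcna (23.0%). These last genes lie outside the naming rule and were named after their values were seen.

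The knockdown lowered 17 of the 23 in vehicle (10.8% of all genes were lower), 10 in LPS (15.8%) and 11 in Dex+LPS (15.3%). The genes that rose were Pcna and Ezh2 in LPS (17.3% of all genes were higher) and Ezh2 in Dex+LPS (19.0%), also named after their values were seen. Ccna2, which encodes the S phase cyclin A2, went from 73.7 ± 18 to 22.5 ± 3.32 in LPS, -1.65 (SE 0.17; limma adjusted p = 7.27e-07). Tk1, thymidine kinase, fell by 1.74 (SE 0.25; limma adjusted p = 3.35e-05) in Dex+LPS, and Rrm2 (change of -1.80 on the log2 scale, SE 0.21; limma adjusted p = 2.47e-06). Chek1, a checkpoint kinase gene, fell by 1.83 (SE 0.42; limma adjusted p = 0.00432) in vehicle. In LPS the Brg1 libraries held more E2f1, E2f2 and E2f8 than the control libraries. Of the 23 target genes there, 10 were called lower (15.8% of all genes), Ccna2 among them. Higher calls numbered 2 (17.3% of all genes), Pcna and Ezh2.

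Of the pocket protein genes, which bind E2Fs, LPS raised Rbl1 and lowered Rb1 and Rbl2 with each siRNA. Rbl1, encoding p107, rose by 1.96 (SE 0.17; limma adjusted p = 8.2e-09) with Brg1 siRNA, and the knockdown raised it in Dex+LPS from 318 ± 80.3 to 694 ± 92.0 (n = 4), 1.15 (SE 0.15; limma adjusted p = 8.54e-06). Rb1 fell, with a log2 fold change of -1.20 (SE 0.17; limma adjusted p = 5.69e-06) with LPS and control siRNA. Rbl2, encoding p130, rose by 1.80 (SE 0.10; limma adjusted p = 6.74e-11) with Dex and control siRNA, and by 0.29 (SE 0.11; limma adjusted p = 0.048) with the knockdown in LPS.

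Among E2F subunits and DP partners, Tfdp2, a dimerization partner, fell by 3.61 (SE 0.25; limma adjusted p = 3.03e-10) and E2f5, a pocket-protein-bound E2F, rose by 1.18 (SE 0.17; limma adjusted p = 3.9e-06) with LPS and control siRNA. The knockdown lowered E2f5 (change of -0.76 on the log2 scale, SE 0.17; limma adjusted p = 0.0016) in LPS. E2f6 was called lower with the knockdown in vehicle, -5.71 (SE 1.82; limma adjusted p = 0.0323), but switched between 0 and high values within groups. Its control vehicle libraries ran from 103 to 243 and its Brg1 vehicle libraries from 0 to 25.5, and 1 of 4 Brg1 Dex+LPS libraries held 156 where the others held 0.

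Of the CDK inhibitors, Cdkn1a, encoding p21, rose with LPS from 1909 ± 89.4 to 54769.5 ± 1761 with Brg1 siRNA, 4.84 (SE 0.05; limma adjusted p = 4.12e-22), and from 2212 ± 62.6 to 57889 ± 1884 with control siRNA. Cdkn2b, encoding p15, rose with LPS by 4.74 (SE 0.18; limma adjusted p = 4.84e-14) with Brg1 siRNA and fell with the knockdown in vehicle (change of -1.02 on the log2 scale, SE 0.18; limma adjusted p = 0.000489). Cdkn1c, encoding p57, fell with LPS and control siRNA (change of -1.39 on the log2 scale, SE 0.12; limma adjusted p = 7.95e-09) and rose with the knockdown in LPS by 1.13 (SE 0.12; limma adjusted p = 1.28e-06). Cdkn1b, encoding p27, rose with the knockdown in Dex+LPS from 688 ± 41.0 to 1159 ± 77.6 (n = 4), 0.75 (SE 0.13; limma adjusted p = 0.00021), and Cdkn2c, encoding p18, fell with LPS and control siRNA (change of -2.82 on the log2 scale, SE 0.22; limma adjusted p = 1.27e-09).

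Kinases and activators moved in both directions. Skp2, which marks p27 for breakdown, fell with LPS (change of -2.55 on the log2 scale, SE 0.15; limma adjusted p = 3.68e-11) with Brg1 siRNA, and with the knockdown in LPS from 65.4 ± 9.31 to 28.2 ± 1.92, -1.18 (SE 0.15; limma adjusted p = 1.1e-05). Cdc25a, a phosphatase that activates Cdk2, rose with LPS and control siRNA by 1.23 (SE 0.07; limma adjusted p = 3.7e-11) and fell with the knockdown in LPS (change of -0.43 on the log2 scale, SE 0.07; limma adjusted p = 0.000206). Cdk4 rose with the knockdown in vehicle by 0.41 (SE 0.10; limma adjusted p = 0.00764), and Cdk6 fell with Dex and control siRNA (change of -1.43 on the log2 scale, SE 0.11; limma adjusted p = 3.15e-09).

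The growth input Myc, a transcription factor gene, fell with the knockdown in vehicle from 279 ± 24.2 to 73.4 ± 11, -1.92 (SE 0.14; limma adjusted p = 2.03e-08), and with Dex and control siRNA (change of -1.99 on the log2 scale, SE 0.13; limma adjusted p = 4.14e-10). Csf1r, the receptor of colony-stimulating factor 1, fell by 0.24 (SE 0.06; limma adjusted p = 0.012) with the knockdown in vehicle and (change of -0.46 on the log2 scale, SE 0.06; limma adjusted p = 3.52e-06) with LPS and control siRNA. Mybl2, a MYB partner of the MuvB core, fell by 3.22 (SE 0.52; limma adjusted p = 2.12e-05) with LPS and control siRNA, to 15 reads over the group. Of the MuvB core genes, Lin9 fell with LPS and control siRNA (change of -0.79 on the log2 scale, SE 0.14; limma adjusted p = 7.03e-05). Lin52 rose by 0.94 (SE 0.10; limma adjusted p = 2.19e-07) with LPS and Brg1 siRNA. Lin37 rose with Dex and control siRNA by 0.66 (SE 0.18; limma adjusted p = 0.00549), and Rbbp4 fell with the knockdown in LPS (change of -0.18 on the log2 scale, SE 0.07; limma adjusted p = 0.0434).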

How the data were processed

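RNA sequencing values for 20 samples were used. The authors deposited 1 table of 17787 genes with normalized signal columns, which the file headers name as a DESeq normalization. The same deposited table holds log2 fold changes and p-values of the authors' own comparisons, which are not used here. The submitters' processing notes name Salmon 1.4.0, DESeq, DESeq2 and R 4.1.0 and the builds mm10 and GRCm38.p6; a strand setting is not given in the sources used here. Dividing by the step of 1 read gave whole reads: 99.95% of the signal values above 0 came within 0.01 of one.

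The members, gene lists and comparisons were chosen with earlier results of these data known. All 6 groups were fitted together by limma-trend on log2(normalized count + 1), with R 4.3.3 and limma 3.58.1, and p-values were adjusted over the 12061 genes with 10 or more in 3 or more samples; the script was tested on simulated data. edgeR 4.0.16 and DESeq2 1.42.0 on whole reads were alternatives, with other scalings, filters, pseudocounts, a term for the library number series, and libraries left out. Intervals are at 95%, and those of read ratios are exact. Other pathway genes were named as up to 4 per role with the largest called change in any knockdown comparison, and likewise in the LPS and Dex responses. Likeness names the 3 genes outside the 10 with the highest correlation; those of E2f3 are not reported here. Transcript lengths and gene positions came from GENCODE vM21. Of the 31-base words of a member's transcripts, at most 4.32% (Ccnd3) occurred as written in transcripts of another gene. Reverse complements were not searched, so overlaps with genes on the other strand are not covered.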

Additional observations from a re-analysis of the deposited data

Results flagged for a closer look

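The knockdown effect differed between LPS and vehicle, by the fitted interaction, for E2f2 (3.29 on the log2 scale), E2f8 (2.13), E2f1 (0.66), Myc (0.86), Csf1r (0.41), Cdkn1c (0.63), Cdkn2b (1.19), Ezh2 (1.11), Pcna (0.53) and Skp2 (-0.68). Between Dex+LPS and LPS it differed for E2f8 (-0.82), E2f1 (-0.70) and Csf1r (-0.32). The members among these were chosen with such results known.

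In 86 groups of 4 samples tested, 5 held a sample far from the other 3, and chance gives about 1 in 20 groups. E2f6 stood at 156 in Brg1 Dex+LPS replicate 4, Cdkn1a at 21518 in control Dex+LPS replicate 2, Cdkn2b at 107 and Pcna at 1993 in Brg1 Dex+LPS replicate 4, and Rrm2 at 23.4 in Brg1 Dex+LPS replicate 2. None of the 10 members did so in the Dex+LPS groups, the only ones with 4 samples. Vehicle and LPS groups were too small for this rule and were not tested.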

How the results depend on the processing

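No called fold change of a member changed sign in an alternative. Of the member values under alternatives, 2695 lay within 1 pooled within-group SD of the main value and 70 did not. Many of these values could not move. Leaving out a library outside the groups compared, changing the filter or fitting just the groups compared leaves the group means as they were. The 2695 is therefore not read as a measure of stability. Signs of the other pathway genes were not checked. For the knockdown by LPS difference, 3 members were called, where 11.4% of all genes were. The count was 5 with DESeq2, with the number series as a term, and without the higher number series. Of the 48 other pathway genes tested 7 were called, and 11 with DESeq2 and when just the groups compared were fitted. For the knockdown by Dex difference, 2 members were called, where 3.97% of all genes were. The count was 1 without the higher series or when just the groups compared were fitted. It was 3 with DESeq2, the replicate block or the series as a term, which add Ccne1. Of the other pathway genes 1 was called, and 2 with DESeq2 or a pseudocount of 5. That count was 4 with the series as a term, and 0 with plain library totals, no filter or just the groups compared. The share of all genes called under each alternative is not printed here or below, so nothing is read from moves of these counts. The cause of the moves was not tested.

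Leaving out 1 library at a time gave 2 to 3 members for the knockdown in vehicle, 5 to 6 in LPS and 4 to 6 in Dex+LPS, 7 to 9 and 9 to 10 for LPS with control and Brg1 siRNA, 6 to 6 and 5 to 7 for Dex, 3 to 6 (6 without Brg1 LPS replicate 2) and 2 to 4 (4 without control Dex+LPS replicate 1) for the LPS and Dex differences. For other pathway genes the ranges were 15 (without control vehicle replicate 1, against 27) to 28, 14 to 23, 19 to 22, 40 to 41, 37 to 39, 27 to 32, 26 to 30, 5 to 10 and 0 to 2 in the same order.

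The replicate numbers did not pair the samples: correlations of same-numbered deviations were -0.17 to 0.08, and 0.41 for replicate 4 in Dex+LPS, both of the higher number series, and the samples that correlated best with their own number were a minority except for LPS with control siRNA (1 of 3, 0 of 3 and 1 of 4 in the knockdown comparisons, 2 of 3 and 0 of 3 for LPS with control and Brg1 siRNA, 0 of 3 in both Dex comparisons). Across groups, deviations of the 4 libraries of the higher number series correlated with one another at 0.21 to 0.41. The main fit has no term for that series, and no vehicle library belongs to it. With the replicate block 5 members were called for the knockdown by LPS difference, 7 for the knockdown in LPS and 6 in Dex+LPS.

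Plain library totals moved the median of all genes by -0.12 for the knockdown in LPS, -0.61 and -0.72 for LPS, and 0.28 and 0.31 for Dex. Higher calls then made up 31.3% of calls for the knockdown in LPS (52.3% before), 36.7% in Dex+LPS (55.4%), 26.2% and 23.2% for LPS (49.3% and 48.7%), 76.2% and 81.4% for Dex (48.2% and 48.1%) and 38.1% for the knockdown by LPS difference (55.9%). Low reads limit E2f2 in control LPS, E2f3 and E2f7. They also limit Ccne2 (11 reads over the group), Mybl2 (15) and Cdc6 (17) in control LPS.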
